A study of Mus musculus with 32 samples.

Results

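The Homer scaffold family comprises Homer1, Homer2 and Homer3, 3 of the 55573 genes in the count table, and its members were taken by name, not by any measured value. RNA-seq counts were read for all 3 genes, and DART-seq sites of m6A, 7 of 18231 in the site list, were read for those members that had any. All 3 members passed the filter on low counts in every comparison, with 411 to 10951 fragments per library.

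Homer proteins sit in the postsynaptic density of excitatory synapses. Their N-terminal EVH1 domain binds proline-rich stretches of metabotropic glutamate receptors, IP3 and ryanodine receptors, Trpc channels and Shank scaffolds, and a C-terminal coiled coil lets the long forms pair and so tie these partners together. The short form Homer1a lacks the coiled coil. It is made when an activity-induced Homer1 transcript ends early, and it competes with the long forms at the same partners.

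Hippocampal neurons from newborn pups, pooled by litter, were grown on porous inserts and collected at DIV 15 as soma, from above the membrane, and neurites, from below it. WT (C57BL/6) and Mettl3 flox/flox neurons were both transduced at DIV 7 with AAV-hSyn-Cre-P2A-dTomato, so WT controls also carry Cre, and the hSyn promoter limits loss of the m6A methyltransferase Mettl3 in the knockout (Mettl3 KO) to neurons. All cultures received 1 µM TTX and 50 µM D-AP5 for 16 h, and KCl cultures then received 55 mM KCl for 2 h while Ctrl cultures did not. Each of the 8 groups (genotype, fraction, treatment) held 2 RNA-seq libraries from distinct litters. The groups were not independent of each other, since Ctrl and KCl cultures shared litters and the 2 fractions came from the same insert. Except for changes of neurite enrichment, the main fits used group terms only and left this pairing out. The soma fraction can also hold neurites that did not pass the membrane. In such bulk samples, fewer cells of a type and less RNA per cell cannot be told apart.

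Libraries held 33789183 to 71394235 counted fragments. Mettl3 was at 8.90 to 17.3 CPM (counts scaled to library size by TMM) in WT and 3.88 to 11.6 CPM in Mettl3 KO, and was lower in Mettl3 KO within each matched pair of groups, without overlap. All 10 neuronal markers reached 1 CPM in every group. Astrocyte markers (all 10 at 1 CPM or more) were present as well, with summed levels of 1200 to 1640 CPM in WT soma and 2030 to 3270 CPM in WT neurites, and of 2060 to 18600 CPM in Mettl3 KO. Both libraries of the KCl-treated Mettl3 KO replicate 1 stood apart: summed neuronal markers were at 1460 CPM in soma and 880 CPM in neurites, against 3540 to 5810 CPM in the other libraries, and the 7 markers of the oligodendrocyte lineage summed to 3510 and 6960 CPM, against 57.8 to 203 CPM elsewhere. Replicates of Mettl3 KO also differed more than those of WT, with an SD of the log2 ratio between replicates of 0.55 to 1.46 against 0.196 to 0.4, so each genotype was fitted alone except where genotypes were compared.

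The 3 genes differ in size. Homer1 (ENSMUSG00000007617, chr13:93299635-93405129 of GRCm38, plus strand) has 12 annotated transcripts and 11976 exon bases. Among these, Homer1-203 codes for 366 residues in 10 exons, whereas Homer1-204 codes for 186 residues in 5 exons, because its last exon continues past the splice site for 4383 bases and ends there. Homer2 (ENSMUSG00000025813, chr7:81600481-81707527, minus strand) has 9 transcripts and 12621 exon bases, and Homer3 (ENSMUSG00000003573, chr8:70282827-70294361, plus strand) has 8 transcripts and 3440 exon bases. The counts are sums over all transcripts of a gene, so the short and long forms of Homer1 could not be told apart.

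DART-seq reads m6A through a fusion of a cytidine deaminase with a YTH domain, which turns the C next to a methylated A into U. The site list held 5 sites in Homer1, 2 in Homer3 and none in Homer2. The sites are shown because they locate the modified stretches within each gene. Each sequence is the RNA strand in GRCm38, as DNA letters, with the deaminated C at position 11, and capitals mark the site trinucleotide, GAC or AAC.
Homer1, chr13:93303902-93303922: gacggaccGACggaccggcca
Homer1, chr13:93304688-93304708: cttaggagGACgaacattcaa
Homer1, chr13:93304894-93304914: gaaatttgAACccaccgcctt
Homer1, chr13:93304951-93304971: tcgtggaaGACgtgagcgaaa
Homer1, chr13:93359227-93359247: ttaactaaAACtggagtcata
Homer3, chr8:70293021-70293041: tggagtgcAACctggaggagg
Homer3, chr8:70293376-70293396: catggggcAACagaggctttg

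The first 4 Homer1 sites lay in the 5′UTR of 1 to 4 of the 12 annotated transcripts, with average C-to-U conversion of 0.963%, 2.29%, 2.53% and 2.58%. The remaining site lay at chr13:93359237 and reached 6.17%, higher than 75.5% of all listed sites, whose median was 3.54%. It fell in the 3′UTR of Homer1-204 alone, 3127 bases after its last coding base, in the extended exon that makes the short form. No listed site fell in the terminal exon of the long transcripts (chr13:93402041-93405129, 3089 bases). Of the Homer3 sites, the one in coding sequence reached 1.06% and the one 223 bases past the last coding base reached 3.51%. Over the whole list 53.7% of the trinucleotides were GAC and 46.3% were AAC, while the members had 3 GAC and 4 AAC.

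**Figure D1:**
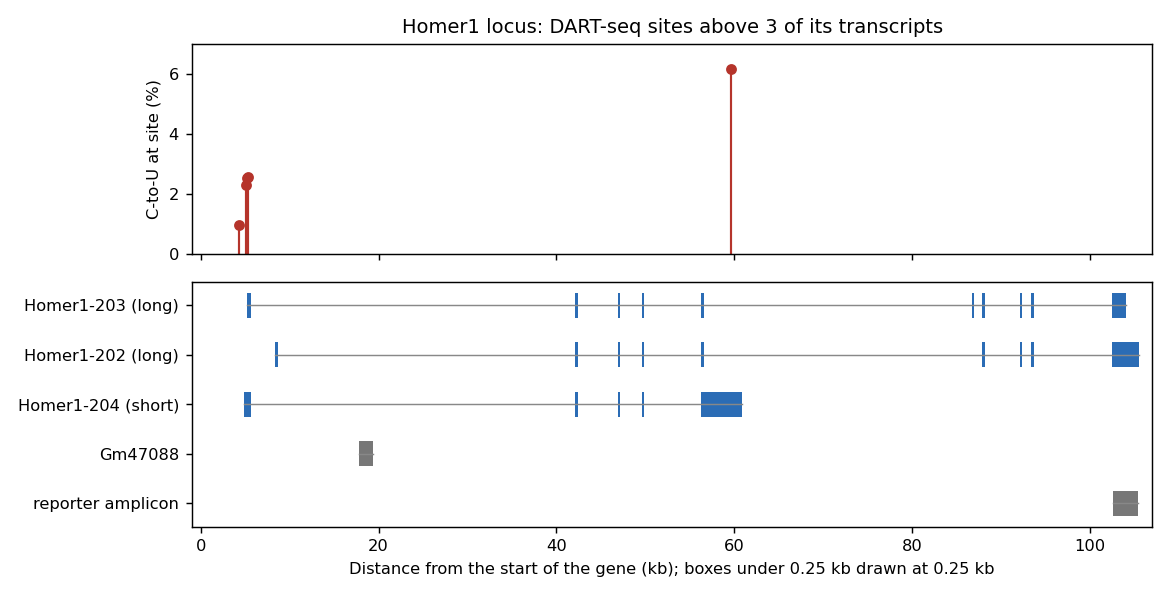
Homer1 DART-seq sites (upper panel, average C-to-U conversion in percent, 1 stem per site) above 3 Homer1 transcripts, Gm47088 and the span of the study's Homer1 reporter amplicon (lower panel), against the distance from the start of the gene in kb. The stem of 6.17% stands over the extended last exon of the short transcript Homer1-204, the other 4 stems stand near the 5′ ends of the transcripts, and none stands over the terminal exon of the long transcripts.

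The deposited editing score, which adds the average conversion over the sites of an RNA, was 0.125 in WT and 0.0416 in Mettl3 KO for Homer1. For Homer3 it was 0.0403 in WT and 0.0038 in Mettl3 KO. The values of the site list summed to 0.145 for Homer1 and 0.0457 for Homer3, above both WT scores. Sites were kept only where WT exceeded Mettl3 KO, so these differences were fixed by the way sites were called. Among the 5643 scored RNAs, Homer1 had a higher WT score than 57.4% and Homer3 than 18.8%. Between fractions, the Homer1 score was 0.124 in soma and 0.125 in neurites, and the Homer3 score was 0.00992 in soma and 0.0693 in neurites, against a median ratio of neurites to soma of 1.3 over all scored RNAs. These values are averages over libraries and carry no replicate error, so the fractions could not be tested from them. The study compared editing between fractions by a Wald test on a binomial model, and its outcome was not read here. Both Homer3 sites lie in exons of Ddx49 on the opposite strand.

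Oligonucleotides for a Homer1 3′UTR reporter are shown because they place the altered adenosines relative to the listed sites. The amplicon primers matched chr13:93402230-93405002 without mismatch, 2773 bases of the long 3′UTR, and this span held 0 of the listed sites. Each of the 4 forward mutagenesis oligonucleotides differed from the genome at a single base that replaced the A of a GAC. Of these, 3 are printed with the changed base in capitals.
Homer1_Mut1_For, chr13:93402273-93402294: gtcttcctaggGctgtttgggc
Homer1_Mut3_For, chr13:93403261-93403284: ctaaattgtgGctgtggcagatgg
Homer1_Mut4_For, chr13:93404826-93404848: gaacatgtggGcttgcagtgacc
Counted from 1 at the 5′ end of the oligonucleotide, with the genome base first, the changes were A12G, A11G and A11G. The study took the sites to mutate from antibody-based m6A maps of neurons and brain, not from DART-seq. It used Homer1 as a control reporter and reported no m6A-dependent neurite localization for the control 3′UTRs. Those imaging values were not read here.

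**Figure D2:**
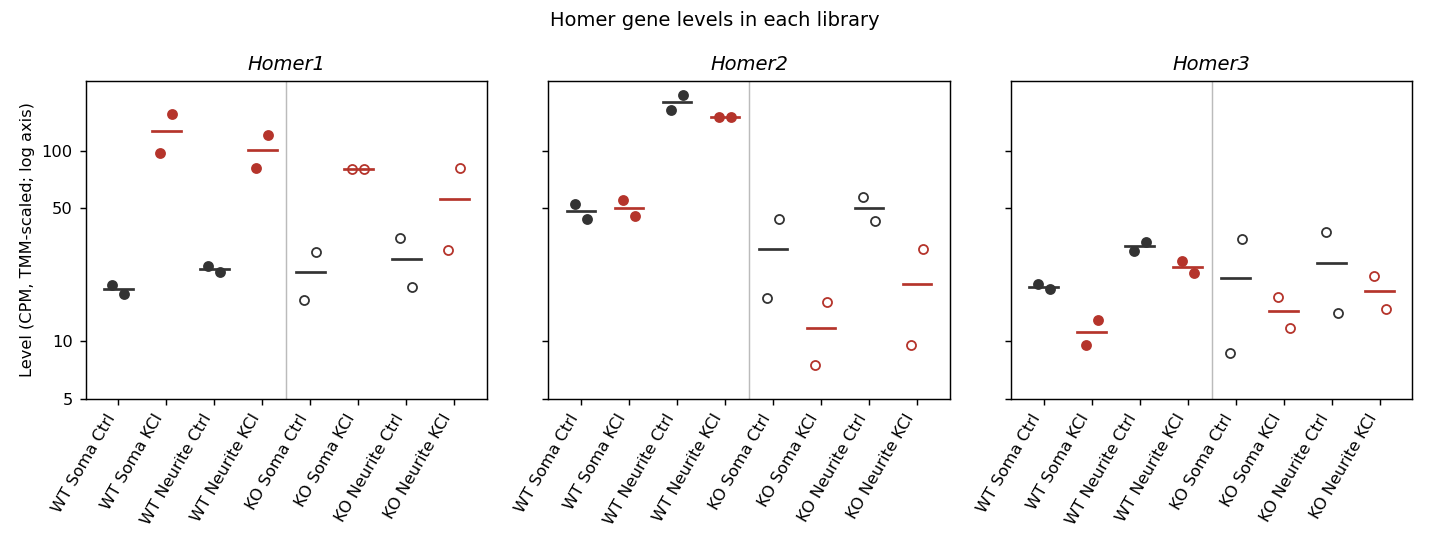
Level of Homer1, Homer2 and Homer3 in each library (CPM, log axis), with WT libraries filled, Mettl3 KO libraries open, KCl libraries red and a line at the mean of each group of 2. All WT KCl libraries lie above all WT Ctrl libraries for Homer1, both WT neurite groups lie above both WT soma groups for Homer2, and the Mettl3 KO libraries spread more widely for Homer2 and Homer3.

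In the main fits, Homer1 was the only member called for a KCl response in WT. In WT soma it was at 19.8 and 17.6 CPM in Ctrl and at 97.4 and 156 CPM in KCl libraries. In WT neurites it was at 24.7 and 23.0 CPM in Ctrl and at 81.2 and 121 CPM in KCl libraries. Every WT KCl library was above every WT Ctrl library in both fractions. Homer1 rose 6.80-fold in soma (log2 change 2.77, SE 0.24, edgeR adjusted p = 4.3e-05) and 4.48-fold in neurites (log2 change 2.16, SE 0.23, adjusted p = 0.000269), past the threshold of 2-fold and an adjusted p of 0.05. With the libraries of both genotypes in 1 fit, the rise in soma kept its call (adjusted p = 0.00991), but the rise in neurites did not (log2 change 2.13, adjusted p = 0.0504). Homer1 was thus 1 of 3 members called in soma, where 3.80% of the genes tested rose, and 1 of 3 in neurites, where 3.24% rose.

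Homer2 was not called in WT after KCl, at 52.3 and 43.7 CPM against 54.9 and 45.3 CPM in soma (log2 change 0.06, SE 0.14, edgeR adjusted p = 0.841) and at 164 and 197 CPM against 150 and 151 CPM in neurites (log2 change -0.19, SE 0.14, adjusted p = 0.491). Homer3, in contrast, was lower in both KCl libraries of WT soma, at 9.51 and 12.9 CPM, than in Ctrl, at 20.0 and 18.7 CPM. This 1.72-fold difference (log2 change -0.79, SE 0.17, edgeR adjusted p = 0.0138) passed the p threshold but not the 2-fold threshold. The adjusted p missed 0.05 without the first Ctrl soma library (log2 change -0.67, edgeR adjusted p = 0.148), without the second (-0.75, adjusted p = 0.0944) and with both genotypes in 1 fit (-0.71, adjusted p = 0.996), whereas without the second KCl soma library the difference passed both thresholds (-1.04, adjusted p = 0.00257). In WT neurites Homer3 was at 29.8 and 33.1 CPM in Ctrl and 26.4 and 22.7 CPM in KCl libraries (log2 change -0.28, SE 0.17, adjusted p = 0.383).

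The Homer1 promoter is shown because Homer1 moved with activity while the other members did not rise. In RefSeq (GRCm38.p6), 5 promoter windows of 300 bases matched the 3 members. The windows were searched on both strands for TGACG, the half-site of CREB, which drives many activity-induced genes, for the full site TGACGTCA, for TGANTCA, an AP-1 site, for the CArG box of serum response factor, and for TATAAA. The half-site is also contained in the full site. It stood 3 times in the Homer1 window at chr13:93303507-93303806, each on the strand of the gene, and in none of the other 4 windows. Of the annotated transcripts, Homer1-207 starts in that Homer1 window (chr13:93303757). The short Homer1-204 and the long Homer1-203 start downstream of it, at chr13:93304495 and chr13:93304799. The capitals mark TGACG.
Homer1, chr13:93303691-93303715: ccgcacaagcTGACGtgagcggagg
Homer1, chr13:93303707-93303731: gagcggagggTGACGtatgtgcgga
Homer1, chr13:93303733-93303757: aggagcgcgcTGACGttgctattta
At least 1 TGACG stood in 20.8% of all 32851 promoter windows, and 3 or more in 1.02%. TGACGTCA (1.79% of all windows), TGANTCA (7.81%) and the CArG box (1.63%) were not in the windows of the members, and TATAAA (13.6%) stood once, in a Homer2 window. A match describes letters, not binding.

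A single-exon unit inside Homer1 rose far more than Homer1 itself. Gm47088 (ENSMUSG00000113076, chr13:93317427-93319065) lies on the Homer1 strand in an intron and shares no exon base with it. It was named after its values were seen. In WT soma it was at 0.819 and 0.953 CPM in Ctrl and at 41.7 and 49.0 CPM in KCl libraries, and in WT neurites at 0.678 and 0.863 CPM in Ctrl and 43.9 and 36.0 CPM in KCl libraries. No KCl library came near a Ctrl library. The rise was 51.3-fold in soma (log2 change 5.68, SE 0.21, edgeR adjusted p = 9.7e-08) and 55.8-fold in neurites (log2 change 5.80, SE 0.22, adjusted p = 1.7e-07). Neurite enrichment of Gm47088 in KCl-treated WT was -0.17 in log2 units (SE 0.16, adjusted p = 0.533). A second such unit, Gm47075 (ENSMUSG00000114169, chr13:93312041-93314055), held 2 to 7 fragments per WT Ctrl library and 54 to 250 per WT KCl library. It rose in WT soma (log2 change 5.76, SE 0.48, adjusted p = 3.6e-05) and neurites (log2 change 3.86, SE 0.51, adjusted p = 0.000981). Reads from unspliced Homer1 RNA and from separate RNAs of these intervals cannot be told apart in the counts.

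Homer2 and Homer3, but not Homer1, were called as enriched in WT neurites, which makes 2 of 3 members in Ctrl, where 8.99% of all genes tested were called higher, and 2 of 3 in KCl, where 6.84% were. The threshold was 1.5-fold with an adjusted p of 0.05. In Ctrl, Homer2 was at 164 and 197 CPM in neurites against 52.3 and 43.7 CPM in soma, 3.61-fold higher (log2 change 1.85, SE 0.15, edgeR adjusted p = 0.000116). In KCl it was at 150 and 151 CPM in neurites against 54.9 and 45.3 CPM in soma, 3.04-fold higher (log2 change 1.60, SE 0.15, adjusted p = 0.000338). The neurite and soma libraries of Homer2 were far apart in both treatments.

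Homer3 was at 29.8 and 33.1 CPM in Ctrl neurites against 20.0 and 18.7 CPM in Ctrl soma, 1.55-fold higher (log2 change 0.64, SE 0.17, edgeR adjusted p = 0.0278). After KCl it was at 26.4 and 22.7 CPM in neurites against 9.51 and 12.9 CPM in soma, 2.21-fold higher (log2 change 1.15, SE 0.18, adjusted p = 0.00282). The Ctrl call of Homer3 was lost without the first or the second WT soma library (adjusted p = 0.0885 and 0.139) and without the second neurite library (log2 change 0.52, adjusted p = 0.144). With the libraries of both genotypes in 1 fit, Homer2 was not called in Ctrl (log2 change 1.94, adjusted p = 0.354) or KCl (1.58, adjusted p = 0.772), nor was Homer3 (0.73, adjusted p = 0.836, and 1.13, adjusted p = 0.973). That fit called no gene at all in either comparison (0% of the 23335 genes tested), so these lost calls are not particular to the members.

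Homer1 was not called between WT fractions, with neurite enrichment of 0.29 in log2 units in Ctrl (SE 0.23, edgeR adjusted p = 0.401) and -0.32 in KCl (SE 0.22, adjusted p = 0.39). Summed neuronal markers in WT also stood higher in neurites (5470 to 5810 CPM) than in soma (4230 to 5020 CPM), as did astrocyte markers (2030 to 3270 against 1200 to 1640 CPM), and their part in the enrichment of Homer2 and Homer3 was not tested.

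The change of neurite enrichment with KCl was fitted with 1 term per insert and read at 1.5-fold and an unadjusted p of 0.05. Homer1 rose in both WT fractions, 6.80-fold in soma and 4.48-fold in neurites. Its neurite enrichment was lower with KCl (log2 change -0.59, SE 0.18, edgeR unadjusted p = 0.00894, adjusted p = 0.999). This made Homer1 1 of 3 members called, where 1.35% of the genes tested were called lower. A shift of existing Homer1 RNA between fractions was not tested. The call was lost without insert terms (log2 change -0.60, edgeR unadjusted p = 0.0868) and with both genotypes in 1 fit (-0.70, unadjusted p = 0.241). It was also lost without Ctrl insert 1 (-0.64, edgeR unadjusted p = 0.0503) or 2 (-0.52, unadjusted p = 0.104), and without KCl insert 2 (-0.50, unadjusted p = 0.0233, under 1.5-fold). Homer2 changed by -0.24 (SE 0.23, edgeR unadjusted p = 0.317) and Homer3 by 0.52 (SE 0.27, unadjusted p = 0.081). Without KCl insert 2, Homer3 passed the threshold (0.89, edgeR unadjusted p = 0.00602), in a fit that called 5.55% of the genes higher.

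Per length of the gene, the make-up of the family differed between Ctrl and KCl, which is given as a description without a test. Of the sum of the 3 members per exon base, Homer1 made up 14.2% ± 0.0668 (SD, n = 2) in WT Ctrl soma and 58.6% ± 7.52 in WT KCl soma. In WT neurites its share was 7.88% ± 1.13 in Ctrl and 30.5% ± 6.79 in KCl. Homer3 held 51.3% ± 1.73 of the sum in Ctrl soma and 18.3% ± 0.178 in KCl soma. Homer2 held 56.2% ± 1.86 in Ctrl neurites and 43.4% ± 2.48 in KCl neurites. On this scale the leading member was Homer3 in WT Ctrl soma, Homer1 in WT KCl soma and Homer2 in both WT neurite groups. Dividing by the longest transcript instead raised the Homer1 share to 21.7% and 70.7% in Ctrl and KCl soma, and to 12.9% and 43.0% in neurites. That scale left Homer2 ahead in Ctrl neurites (50.2%) but put Homer1 (43.0%) before Homer2 (33.7%) in KCl neurites.

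**Figure D3:**
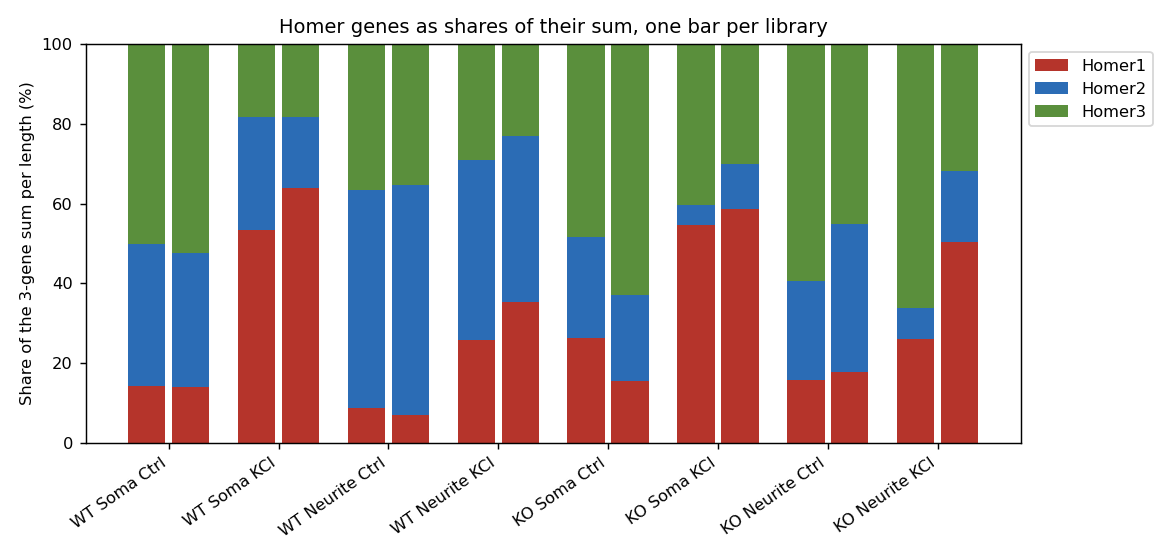
Share of each Homer gene in the sum of the 3 genes per exon base (percent), 1 stacked bar per library, 2 libraries per group. The Homer1 part grows from 14.1% and 14.2% in WT Ctrl soma to 53.3% and 64.0% in WT KCl soma, and Homer2 fills the largest part in all 4 WT neurite libraries.

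In Mettl3 KO neurons, Homer1 was at 79.9 CPM in both KCl soma libraries, above both Ctrl soma libraries, at 16.5 and 29.4 CPM. The change of 3.49-fold (log2 change 1.80, SE 0.57, edgeR unadjusted p = 0.0131, adjusted p = 0.737) did not pass the threshold. In Mettl3 KO neurites it was at 34.7 and 19.2 CPM in Ctrl and at 30.0 and 81.4 CPM in KCl libraries, which overlapped (log2 change 1.07, SE 0.56, adjusted p = 0.731). Leaving out both libraries of KCl-treated replicate 1, a choice made after seeing the data, gave a log2 change of 1.71 in neurites. Leaving out only the neurite library of KCl-treated replicate 2 gave 0.02. The KCl response of Homer1 in Mettl3 KO differed from that in WT by -0.97 in soma (SE 0.62, adjusted p = 0.991) and -0.99 in neurites (SE 0.62, adjusted p = 0.861). No member and no gene at all was called by edgeR in the 4 comparisons within Mettl3 KO (0% of the genes tested). The same held for the 2 tests of the genotype difference (0%). With p left unadjusted at 0.05, the threshold of 1.5-fold was passed by 1214 genes for neurite enrichment in Ctrl and 146 in KCl. That of 2-fold was passed by 1432 genes in soma and 1413 in neurites for the KCl response, and by 397 and 949 for its genotype difference. DESeq2 gave no member call in any of these comparisons either.

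Homer2 stood lower in most Mettl3 KO libraries, without passing the threshold in edgeR. In neurites it was at 57.3 and 42.6 CPM in Mettl3 KO Ctrl and at 9.55 and 30.5 CPM in Mettl3 KO KCl libraries, below all WT neurite libraries, which were at 150 CPM or more. In KCl soma it was at 7.46 and 16.1 CPM, below both WT KCl soma libraries. The groups overlapped only in Ctrl soma, at 16.8 and 43.8 CPM in Mettl3 KO against 52.3 and 43.7 CPM in WT. The log2 changes were -1.89 in Ctrl neurites (SE 0.53, edgeR adjusted p = 0.326), -2.09 in KCl soma (SE 0.54, adjusted p = 0.166), -2.89 in KCl neurites (SE 0.55, adjusted p = 0.051) and -0.66 in Ctrl soma (SE 0.52, adjusted p = 0.762).

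By edgeR, 0 of 3 members were called between genotypes, where 0.189% of the genes tested were called in Ctrl soma, 0.171% in Ctrl neurites, 0.227% in KCl soma and 0.433% in KCl neurites. Homer2 was called under other settings, some of which called many more genes. With replicate numbers as a block, edgeR called it in KCl soma (log2 change -2.67, adjusted p = 0.0298), with 2.60% of the genes, and in KCl neurites (-3.56, adjusted p = 0.0137), with 9.06%. DESeq2 called it in KCl soma (log2 change -2.08, adjusted p = 0.0135), with 4.38% of the genes, and in KCl neurites (-2.90, adjusted p = 8.0e-05), where 6.77% of the genes rose and 4.26% fell. With the KCl-treated Mettl3 KO replicate 1 left out, edgeR called Homer2 in Ctrl neurites (-1.85, adjusted p = 0.0448), with 1.13% of the genes, while the values in KCl soma (-1.65, adjusted p = 0.237) and KCl neurites (-2.31, adjusted p = 0.0864) were not. Summed neuronal markers were at 3790 to 4060 CPM in Mettl3 KO Ctrl neurites against 5470 to 5810 CPM in WT Ctrl neurites. After KCl they were at 1460 to 4090 CPM in Mettl3 KO soma and 880 to 4640 CPM in Mettl3 KO neurites, against 4740 to 5800 CPM in WT, and their part in the Homer2 difference was not tested.

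Homer1 and Homer3 were not called between genotypes in Ctrl cultures, with log2 changes of 0.31 (SE 0.44) and 0.15 (SE 0.53) in soma and 0.14 (SE 0.44) and -0.33 (SE 0.53) in neurites. In KCl cultures Homer1 was at -0.66 in soma (SE 0.44, edgeR adjusted p = 0.507) and -0.84 in neurites (SE 0.44, adjusted p = 0.266). Without the second Mettl3 KO KCl neurite library, the latter was called (log2 change -1.72, adjusted p = 0.0154), but so were 30.6% of the genes tested, and the library that remained was replicate 1, with neuronal markers at 880 CPM and oligodendrocyte lineage markers at 6960 CPM. Homer3 was at 0.37 (SE 0.54) and -0.40 (SE 0.54). Gm47088 was at 10.9 and 17.5 CPM in Mettl3 KO KCl soma, below both WT KCl soma libraries (log2 change -1.67, SE 0.63, adjusted p = 0.275).

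Neurite enrichment in Mettl3 KO Ctrl was 0.65 for Homer2 (SE 0.69, edgeR adjusted p = 0.915), 0.18 for Homer3 (SE 0.70) and 0.16 for Homer1 (SE 0.55). In Mettl3 KO KCl it was 0.71 for Homer2 (SE 0.69), 0.29 for Homer3 (SE 0.70) and -0.58 for Homer1 (SE 0.55). The Ctrl enrichment of Homer2 differed between genotypes by -1.10 (SE 0.51, unadjusted p = 0.0603), and 0 of 3 members were called in a comparison where 4.29% of the genes tested were. Leaving out Mettl3 KO Ctrl insert 1 put Homer2 (-1.89, edgeR unadjusted p = 0.000272) and Homer3 (-1.93, unadjusted p = 0.000235) past the threshold, together with 21.3% of the genes tested. Leaving out insert 2 instead turned the Homer3 value to 1.33 (edgeR unadjusted p = 0.00352), with 8.49% of the genes called.

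**Figure D4:**
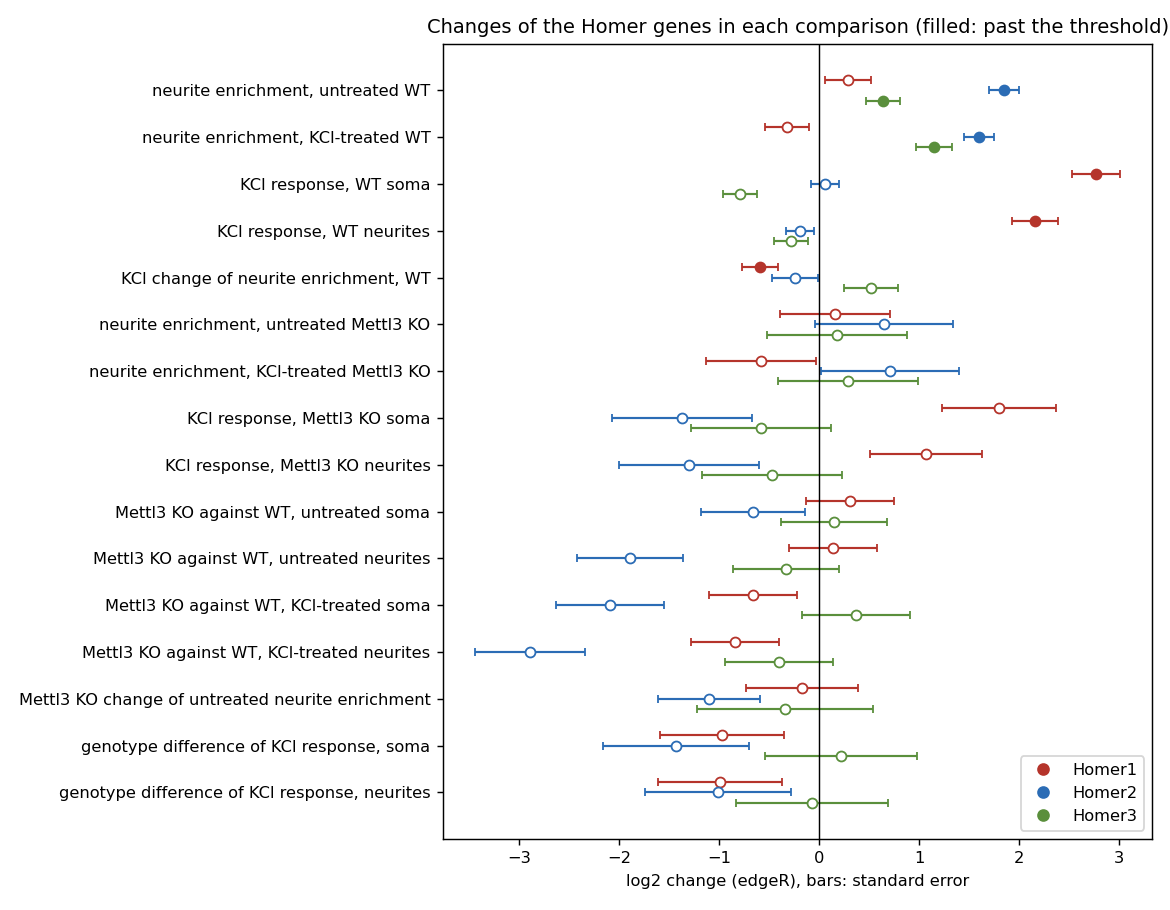
log2 change of Homer1, Homer2 and Homer3 in each of the 16 comparisons (untreated stands for Ctrl), with bars for the standard error, filled where the change passed the threshold of that comparison. Filled points stand in the WT comparisons only, and the bars of comparisons that include Mettl3 KO are wider.

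Across the 8 groups, Homer1 stood highest in WT KCl soma (127 ± 41.2 CPM, SD, n = 2), then WT KCl neurites (101 ± 28.2), Mettl3 KO KCl soma (79.9 ± 0.0676) and Mettl3 KO KCl neurites (55.7 ± 36.4), and the 4 Ctrl groups followed at 18.7 to 27.0 CPM. Neighbours in this order overlapped, except that both WT KCl neurite libraries were above both Mettl3 KO KCl soma libraries. Homer2 ran from 181 ± 23.2 CPM in WT Ctrl neurites to 11.8 ± 6.09 CPM in Mettl3 KO KCl soma, and the 2 highest groups, both WT neurites, stood apart from each other and from the rest. Homer3 had the narrowest range of group means, 31.4 ± 2.38 CPM in WT Ctrl neurites to 11.2 ± 2.36 CPM in WT KCl soma, and all neighbours overlapped. On Homer3 a further limit applies, since 874 of its 3440 exon bases (25.4%) are also exons of Ddx49, which was at 14.1 to 31.1 CPM, and the counting used no strand.

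Among 15169 other genes, the pattern over the 16 libraries most like that of Homer1 was shown by Kitl (Pearson r = 0.966), Rrad (0.958) and A730063M14Rik (0.958). Homer2 was closest to Phactr1 (0.984), Ncs1 (0.983) and Klf13 (0.982), and Homer3 to Mapkap1 (0.95), Zdhhc1 (0.92) and Pcbp4 (0.916). The members themselves were less alike, with r = -0.00186 for Homer1 and Homer2, -0.24 for Homer1 and Homer3 and 0.503 for Homer2 and Homer3. Over the 8 WT libraries alone, these 3 values were -0.0441, -0.501 and 0.801. All these values describe the 16 libraries or the 8 of WT, which share treatments, litters and depth.

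Of 23 Homer partners and parts of metabotropic glutamate receptor signalling, which include the receptor Grm5, the G protein subunits Gnaq and Gna11, phospholipases, IP3 and ryanodine receptors, Trpc channels and Shank scaffolds, none was called by edgeR or DESeq2 after KCl in WT soma or neurites (2 and 3 at an unadjusted p under 0.05 in edgeR). Of all genes tested, edgeR called 6.81% in soma and 4.94% in neurites, and DESeq2 called 6.44% and 5.25%. At such shares few calls are to be looked for among 23 genes, so their absence is not read as a result. The median log2 change of the 23 was 0.14 in both fractions, against 0.01 over all genes tested. In WT Ctrl, 5 of the 23 were higher and 2 lower in neurites (median 0.09, all genes -0.10), where 8.99% of the genes tested were higher and 4.52% lower. The highest were Shank1 (log2 change 2.05, SE 0.21, edgeR adjusted p = 0.00031), Shank3 (1.36, SE 0.18, adjusted p = 0.00104) and Gna11 (0.98, SE 0.16, adjusted p = 0.00319). The channel genes Trpc4 (-0.69, SE 0.18, adjusted p = 0.0237) and Cacna1d (-0.64, SE 0.15, adjusted p = 0.0168) were lower in neurites. In WT KCl, 4 were higher and 1 lower (1586 and 627 of the 23200 genes tested), led by Shank1 (1.94, SE 0.21, adjusted p = 0.000636), Shank3 (1.15, SE 0.18, adjusted p = 0.00331) and Shank2 (0.88, SE 0.17, adjusted p = 0.00941), with Trpc4 lower (-0.82, SE 0.18, adjusted p = 0.0156). None of the 23 was called between genotypes by edgeR (3 to 7 at an unadjusted p under 0.05), and DESeq2 called 1 in Ctrl soma, 0 in Ctrl neurites, 1 in KCl soma and 3 in KCl neurites, where it called 1.77%, 1.31% and 4.38% of the genes tested in the first 3 comparisons, and in KCl neurites 6.77% higher and 4.26% lower. In edgeR, their medians were -0.17 in Ctrl soma, -0.35 in Ctrl neurites, -0.48 in KCl soma and -0.69 in KCl neurites, against 0.01 to 0.09 over all genes tested. Summed neuronal markers in Mettl3 KO and WT were at 3540 to 4480 and 4230 to 4390 CPM in Ctrl soma, 3790 to 4060 and 5470 to 5810 CPM in Ctrl neurites, 1460 to 4090 and 4740 to 5020 CPM in KCl soma, and 880 to 4640 and 5640 to 5800 CPM in KCl neurites. Their part in these medians was not tested.

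All 13 early activity-induced genes, such as the transcription factors Fos and Npas4, rose in WT soma (median log2 change 5.04) and in WT neurites (median 4.83), against 0.01 over all genes tested in each. The Homer1 rise of 2.77 and 2.16 lay below these medians. In the change of neurite enrichment with KCl, 5 of the 13 were lower and 1 higher at the unadjusted threshold. Of all genes tested, 1.35% were lower and 2.00% higher. Fos changed by -1.17 (SE 0.20, edgeR unadjusted p = 0.000241), Nr4a1 by -0.74 (SE 0.19, unadjusted p = 0.00409) and Npas4 by -0.81 (SE 0.24, unadjusted p = 0.00861), next to -0.59 for Homer1, and Ptgs2, a prostaglandin synthase, by 1.09 (SE 0.46, unadjusted p = 0.0408). The edgeR adjusted p was 0.939 for Fos and 0.999 for Nr4a1, Npas4 and Ptgs2. No gene at all was called at an adjusted p of 0.05 there. In Mettl3 KO the median of the 13 was 4.43 in soma and 3.76 in neurites. None of them was called there by edgeR, with 11 in soma and 12 in neurites at an unadjusted p under 0.05, whereas DESeq2 called 11 in each fraction, where it called 0.944% of the genes higher in soma and 0.970% in neurites.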

How the data were processed

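The authors trimmed reads with Flexbar, aligned them to mm10 with STAR 2.7.7a and counted fragments per gene with featureCounts 2.0.1 on Ensembl release 97, multimapping reads included and strand unused, and the deposited counts are not normalized. The deposited exon length is in bases. The authors' DART-seq table holds an editing score per RNA, and their site list gives a C2U fraction per site, both averages over libraries, so the depth at a site is unknown. The baseMean signal in the authors' DESeq2 tables is a mean count scaled by size factors, and only the gene names of those tables were used. Their columns of fold changes and p-values were not used.

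Counts were fitted in edgeR 4.0.16 (R 4.3.3): two-sided quasi-likelihood tests after TMM scaling, keeping genes whose counts averaged 10 or more, with p adjusted by Benjamini and Hochberg over all of them. The 37 mitochondrially encoded genes were left out. WT and Mettl3 KO were fitted in 8 libraries each, genotype comparisons in 16, because the common coefficient of variation was 0.151 in WT and 0.505 in Mettl3 KO. Changes of neurite enrichment had 1 term per insert, taken as the replicate number, which the study's methods pair but the values did not show in WT (r = -0.135 in Ctrl and 0.0333 in KCl). Thresholds followed the study's methods. On simulated counts, only the fit of the 8 WT libraries with group terms was tried, for the KCl response in soma. DESeq2 1.42.0 and voom in limma 3.58.1 were alternatives, with RLE scaling, other count filters, other libraries, the replicate as a block and each replicate left out.

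Named genes were the members, Mettl3, the 3 genes with the highest correlation to each member (log2 of CPM plus 0.5, mean count of at least 100), and at most 3 called genes per direction, list and comparison. Genes inside the Homer1 locus were added after their values were seen. The members, lists and thresholds were chosen with earlier results of these data known. Gene models were from GENCODE M21, promoters from RefSeq.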

Additional observations from a re-analysis of the deposited data

Results flagged for a closer look

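The neurite enrichment of Homer1 in WT differed between treatments by -0.59 in log2 units (SE 0.18, edgeR with insert terms, unadjusted p = 0.00894, adjusted p = 0.999). It was drawn to attention because the difference between the treatments was itself tested and passed the unadjusted threshold. Homer1 was at 0.29 in Ctrl and -0.32 in KCl, and neither of these values passed its own threshold. Over all 4 combinations of a neurite and a soma library, Homer1 was higher in neurites in 1 with KCl and in 4 in Ctrl. Between libraries of the same replicate number, Homer1 with KCl was lower in neurites both times, at 81.2 against 97.4 CPM and 121 against 156 CPM. In Ctrl it was higher in neurites both times, at 24.7 against 19.8 CPM and 23.0 against 17.6 CPM.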

How the results depend on the processing

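Over 817 comparisons of a result with an alternative, 713 kept direction and side of the threshold, 13 lost a call, 18 gained one, 46 counts or shares moved and 27 changed sign. The Homer1 rise with KCl in WT soma held in 11 of 11 alternatives (log2 change 2.37 to 3.09). With all 16 libraries in 1 fit, 0 members were called in WT neurite enrichment in Ctrl or KCl, where 0% of the genes tested were called. With these libraries, 0 members were also called in the KCl response of WT neurites (1.09% of the genes tested). The same held for the WT change of neurite enrichment (1.22%). For the other alternatives, the number of members called in Ctrl neurite enrichment of WT was 1 to 2 with a replicate left out, in the KCl response of WT soma 1 to 2, in the WT change of neurite enrichment 0 to 1, and 0 without the replicate block. Homer2 made the count 1 between genotypes in Ctrl neurites with no filter, voom weights, only the libraries compared, or KCl-treated Mettl3 KO replicate 1 left out, a choice made after seeing the data. It did so in KCl soma with DESeq2, no filter or the replicate block (log2 change -2.67, adjusted p = 0.0298). In KCl neurites the count was 1 with DESeq2, no filter, a mean count of at least 100 or the replicate block (-3.56, adjusted p = 0.0137), and 0 to 2 with a replicate left out. For the Mettl3 KO change of Ctrl neurite enrichment it was 1 with no filter and 0 to 2 with a replicate left out. The replicate block changed no other call. Its numbers were not shown by the values to pair WT samples (r of -0.135 to 0.078 across genes). In Mettl3 KO, r was 0.897 between soma and neurites in KCl and 0.0756 to 0.189 for the other pairs of groups. Crossing the WT Ctrl inserts, also chosen after seeing the data, gave 495 genes higher and 392 lower for the WT change, against 465 and 314, and left the 1 member call. With average conversion of at least 5%, 1 Homer1 and 0 Homer3 sites were left, and at 10%, 0 and 0.

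Signs changed as follows, in log2 units, and the cause was not tested. With a replicate left out in turn, WT values ranged from -0.61 to 0.08 for Homer1 enrichment in KCl, from -0.05 to 0.27 for the Homer2 soma response and from -0.52 to 0.05 for the Homer2 change of enrichment. In Mettl3 KO, enrichment in Ctrl ranged from -0.17 to 0.62 (Homer1, with -0.07 between) and from -0.53 to 1.47 (Homer3, with -0.37 between), and enrichment in KCl from -1.45 to 0.04 (Homer1) and from -0.35 to 1.39 (Homer2). The Homer3 KCl response ranged from -1.30 to 0.71 in soma and from -0.99 to 0.28 in neurites. Between genotypes in Ctrl, Homer1 ranged from -0.13 to 0.68 in soma and from -0.29 to 0.50 in neurites, and Homer3 from -1.11 to 0.86 in soma and from -1.14 to 0.22 in neurites. The Mettl3 KO change of enrichment ranged from -0.91 to 0.64 (Homer1) and from -1.93 to 1.33 (Homer3), and the genotype difference of the Homer3 KCl response from -0.50 to 1.47 in soma and from -0.66 to 0.74 in neurites. Voom weights gave -0.13 for Homer3 between genotypes in Ctrl soma and 0.07 for its genotype difference in neurites. Without KCl-treated Mettl3 KO replicate 1, Homer1 enrichment in KCl was 0.07 and the Homer3 genotype difference in soma -0.07.

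Only 2 litters stood behind each group. The p-values rest on a spread shared by all groups of a fit and moderated across genes. Residual degrees of freedom were 4 in the fits of 8 libraries and 8 in the fit of 16. With insert terms they were 2 and 4. Counting without strand leaves Homer3 mixed with Ddx49 over 874 bases. Gene counts do not separate Homer1 transcripts, and the DART-seq values carry no depth or replicate error.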
